A study of Mus musculus with 12 samples.

Results

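The 40 mitotic and proliferation genes described here are cyclins, mitotic kinases, kinetochore and spindle proteins, and enzymes of DNA and nucleotide supply. They were chosen by symbol, and all 40 had a row among the 47747 symbols of the count table. Of these, 39 passed the filter on low counts, as did 18593 genes in all. The gene left out was Cdkn3, a phosphatase that acts on cyclin-dependent kinases, with 0.159 to 1.02 CPM (counts of a gene scaled to the library's normalized total) in DSS libraries and 0 to 0.419 CPM in Control libraries. Among the 39, 11 were above the filter's cutoff in fewer than 6 Control libraries (Ccnb1, Aurka, Nek2, Melk, Pbk, Ttk, Bub1, Ndc80, Nuf2, Spc24 and Spc25), and 28 were above it in all 6.

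Meningeal total RNA of 12 mice of strain C57bl/6 was sequenced, with 1 library per mouse. In the DSS group, 6 mice drank water with 2% DSS (dextran sulfate sodium, which injures the colon lining and is used to induce colitis) for 5 days and then normal water, and were culled after 6 days, a time whose starting point the labels do not give. The Control group was 6 mice of the same strain whose treatment label reads Control. Age and sex were not given in the sources used here, and the source label of every library reads Colon although titles and extraction protocol name meninges. Fibroblast markers such as Col1a1, which encodes a chain of type I collagen, were abundant in every library, at 4280 to 9121 CPM in DSS meninges and 4164 to 7044 CPM in Control meninges. The 8 colon epithelium markers summed to 5.30 to 13.6 CPM in DSS and 5.64 to 10.5 CPM in Control. Of these, Lgals4, an epithelial galectin, was at 3.99 to 6.24 CPM in DSS and 2.71 to 4.11 CPM in Control, and Muc2, the main intestinal mucin, at 0.105 to 5.62 CPM in DSS and 0.0800 to 1.98 CPM in Control. Cdx2, an intestinal transcription factor gene, had 0 counts in all 12 libraries.

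Total counts were 13078923 to 28544877 in DSS libraries and 9312788 to 41869997 in Control libraries, and the tested members had 2 to 1317 counts in a library. Ribosomal RNA features took 1.27 to 4.66% of the counts in DSS libraries and 1.13 to 61.3% in Control libraries, where Control replicate 2 was the highest. Skeletal muscle markers summed to 168 CPM in DSS replicate 2, to 2.23 to 5.99 CPM in the other DSS libraries and to 4.98 to 12.2 CPM in Control libraries. The count of risen members was 17 when both replicates 2 were left out, against 16 with all libraries. Of all tested genes, 4.55% and 3.68% rose in these 2 runs.

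As background, a dividing cell copies its DNA in S phase, condenses its chromosomes and attaches them through kinetochores to the spindle, and separates them once the spindle checkpoint is satisfied. Cyclin B with CDK1 drives entry into mitosis, and the anaphase-promoting complex, activated by CDC20, ends it by marking cyclin B and securin for destruction. Most of these genes are transcribed late in the cell cycle, under MuvB complexes with B-MYB and FOXM1, and are kept low in resting cells by the DREAM complex. Their transcripts are therefore widely used as markers of cycling cells, which in adult meninges can include developing blood cells as well as resident cells.

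Mitotic transcripts rose in the meninges of DSS mice relative to Control mice for part of the set. Of the 39 tested members, 16 rose and 0 fell at an adjusted p under 0.05 (edgeR's quasi-likelihood test, Benjamini-Hochberg over all tested genes), while 3.68% of all tested genes rose and 1.26% fell. Falls also numbered 0 at an unadjusted p under 0.05, with DESeq2 and with limma-voom. The median log2 fold change was 0.89 over the tested members, a fold of 1.86, against -0.02 over all tested genes. The 16 were the cyclins Ccnb1 and Ccnb2, the transcription factor Foxm1, the passenger complex genes Aurkb and Birc5, the checkpoint and anaphase genes Bub1, Cdc20 and Ube2c, the kinetochore genes Cenpa and Cenpf, the spindle genes Tpx2 and Hmmr, the chromosome genes Mki67 and Top2a, and the nucleotide enzymes Rrm2 and Tk1. Of the 23 members not called, 22 had a positive fold change and 1, Mad2l1, a negative one. Positive fold changes made up 45.3% of all tested genes. At an unadjusted p under 0.05, 32 members were higher in DSS, against 9.77% of all tested genes.

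The count of 16 depended on single mice, and the share of all tested genes that rose, 3.68% with all mice, changed as well. Leaving out DSS replicate 6, 4 or 5 gave counts of 7, 8 and 9, against 2.37%, 2.46% and 3.29% of all tested genes. Leaving out Control replicate 5 or 6 gave 8 and 9, against 2.63% and 3.2%. Leaving out DSS replicate 3 gave 30, against 3.67%. DESeq2's Wald test called 27, against 5.57%. With 1 mouse left out, the members' median log2 fold change was 0.745 to 1.05. In bulk tissue, more dividing cells and more of these transcripts per cell cannot be told apart.

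**Figure D1:**
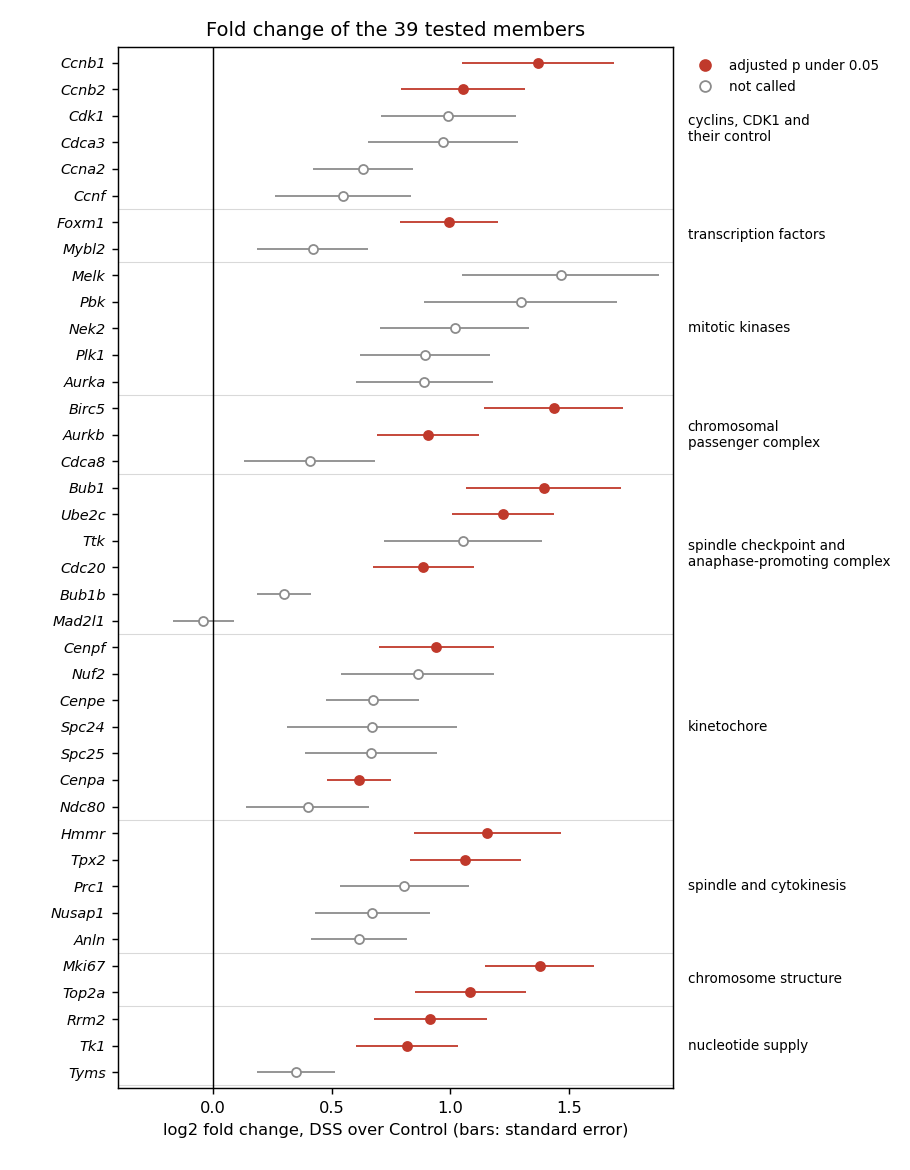
Log2 fold change (DSS over Control, x axis) of the 39 tested members, grouped by role, with bars of 1 standard error. Filled points are the 16 genes with an adjusted p under 0.05, and only Mad2l1 lies below 0.

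The promoters of a few members are shown because late cell cycle genes share a pair of short elements near their start, the cell cycle genes homology region (CHR), bound by MuvB complexes, and CCAAT boxes, bound by NF-Y. RefSeq promoter windows (GRCm38.p6) of 300 bases, from 250 before to 50 after the gene start, matched 34 of the 40 members (not Foxm1, Spc24, Pbk, Aurkb, Tpx2 and Ccna2). The stretches below hold 180 bases, 150 before to 30 after the start, 5′ to 3′ on the gene's strand. Capitals mark exact matches on either strand to CHR letters (TTTGAA or TTCGAA) or to CCAAT. Mki67, Ube2c, Cenpa, Ccnb1 and Ccnb2 rose, and Mad2l1 had the lowest fold change of the set. Mki67 lies at chr7:135716350-135716529 on the minus strand, Ube2c at chr2:164769779-164769958 on the plus strand, Cenpa at chr5:30666736-30666915 on the plus strand, Ccnb1 at chr13:100786457-100786636 on the minus strand, Ccnb2 at chr9:70421525-70421704 on the minus strand and Mad2l1 at chr6:66535071-66535250 on the plus strand.
Mki67: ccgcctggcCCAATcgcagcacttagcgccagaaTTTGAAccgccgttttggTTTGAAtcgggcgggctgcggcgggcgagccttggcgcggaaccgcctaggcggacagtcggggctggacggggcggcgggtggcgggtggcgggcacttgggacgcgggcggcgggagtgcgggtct
Ube2c: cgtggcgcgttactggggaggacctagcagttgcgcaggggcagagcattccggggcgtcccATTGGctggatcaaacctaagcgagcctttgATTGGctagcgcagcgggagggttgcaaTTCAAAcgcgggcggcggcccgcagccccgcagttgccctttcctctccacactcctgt
Cenpa: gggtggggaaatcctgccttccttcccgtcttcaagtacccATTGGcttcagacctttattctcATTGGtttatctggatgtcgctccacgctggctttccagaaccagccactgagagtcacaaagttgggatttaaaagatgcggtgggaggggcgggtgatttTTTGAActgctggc
Ccnb1: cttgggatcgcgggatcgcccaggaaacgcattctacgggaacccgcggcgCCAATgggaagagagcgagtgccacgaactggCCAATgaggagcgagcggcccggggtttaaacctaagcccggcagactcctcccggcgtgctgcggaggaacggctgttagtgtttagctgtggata
Ccnb2: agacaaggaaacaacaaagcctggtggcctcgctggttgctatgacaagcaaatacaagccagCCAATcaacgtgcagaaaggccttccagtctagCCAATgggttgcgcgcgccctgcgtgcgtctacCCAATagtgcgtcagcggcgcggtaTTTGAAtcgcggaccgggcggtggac
Mad2l1: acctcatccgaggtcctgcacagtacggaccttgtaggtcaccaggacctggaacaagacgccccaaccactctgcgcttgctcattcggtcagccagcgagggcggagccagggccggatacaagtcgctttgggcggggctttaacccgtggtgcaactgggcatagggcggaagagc

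Within these 180 bases, Mki67 and Ube2c held both kinds of match upstream of the start, Cenpa and Ccnb2 held CCAAT matches upstream and a CHR match just after the start, Ccnb1 held CCAAT matches alone and Mad2l1 held neither. These positions are relative to the RefSeq start. The RefSeq start was at most 50 bases from the outermost GENCODE start in 26 of the 34 members. For Cenpa and Ccnb1 it lay 109 and 84 bases inside the GENCODE gene, so some CCAAT matches called upstream lie within that gene. For Mad2l1 it lay 169 bases before the GENCODE start, so that the whole stretch shown is upstream of that start and no letters around it were searched. Over the full windows, 22 of 34 members held a CHR match (64.7%), against 19.4% of all 27025 windows and 14.0% of the 11906 windows of tested genes. CCAAT was present in 24 members (70.6%), against 37.9% of all windows, and both motifs in 20 members (58.8%), against 7.7%. E2F letters (TTTGGCGC, TTTCCCGC or TTTCGCGC) matched in 1 member, Cdk1, or 2.9%, against 1.9% of all windows and 3.2% of the windows of tested genes. Both strands were searched, and matches of different motifs shared letters in 1 member, Cdca8. CHR letters were in 9 of the 13 risen members with a window and in 13 of the 21 other members, and CCAAT in 11 of those 13 and in 13 of those 21. A match is a description of letters and was not tested as a binding site.

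Among cyclins, CDK1 and their regulators, 2 of 6 tested members rose, and the median log2 fold change was 0.98. Ccnb1 (cyclin B1, the main partner of CDK1 at mitotic entry) was measured at 1.12 to 6.44 CPM in DSS meninges, with a median of 2.92, and at 0.838 to 1.496 CPM in Control meninges, with a median of 1.27. DSS replicate 4 was highest and DSS replicate 3 lay inside the Control range, so the groups overlapped through 1 mouse. The log2 fold change was 1.37 ± 0.32 (SE, n = 6 per group), with an adjusted p of 0.0239 in edgeR's quasi-likelihood test, and the call was lost when DSS replicate 6 or Control replicate 5 was left out. Ccnb2, a second B-type cyclin, rose by 1.05 ± 0.26, a call lost when DSS replicate 4, 5 or 6 or Control replicate 2, 4, 5 or 6 was left out.

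Cdk1, the kinase itself, did not pass. It had 1.79 to 6.48 CPM in DSS mice, with a median of 3.95, and 1.17 to 2.47 CPM in Control mice, with a median of 1.91. DSS replicates 2 and 3 lay within the Control range, and the other 4 DSS mice were above it. Its log2 fold change was 0.99 ± 0.29 (adjusted p = 0.0614, edgeR), and it was called when DSS replicate 2 or 3 was left out. Ccnf (cyclin F, a substrate-binding subunit of a ubiquitin ligase) had the largest p of the group, with 0.881 to 4.80 CPM in DSS mice (median 2.84) against 1.48 to 2.21 CPM in Control mice (median 1.89). DSS replicate 2 was below all Control mice and DSS replicate 4 the highest, and the log2 fold change was 0.55 ± 0.29 (adjusted p = 0.327, edgeR). Cdca3, which promotes destruction of the mitotic inhibitor WEE1, and Ccna2 (cyclin A2, active in S phase and early mitosis) had log2 fold changes of 0.97 and 0.63 and did not pass.

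Foxm1, the forkhead factor that activates late cell cycle genes, rose, and Mybl2 (B-MYB, which joins MuvB to activate them) did not pass. Foxm1 was at 2.79 to 7.06 CPM in DSS meninges, with a median of 4.05, and at 1.53 to 2.43 CPM in Control meninges, with a median of 2.23. All 6 DSS mice were above all 6 Control mice. Its log2 fold change was 1.00 ± 0.21 (adjusted p = 0.0128, edgeR). Mybl2 had 1.06 to 2.18 CPM in DSS mice (median 1.80) and 0.774 to 1.55 CPM in Control mice (median 1.26). The groups overlapped through DSS replicates 3 and 6, and the log2 fold change of 0.42 ± 0.23 gave an adjusted p of 0.360 in edgeR.

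The role group of 5 mitotic kinases held the highest fold change of the set, but 0 of these 5 were called by edgeR. The kinases Aurkb and Bub1, which rose, and Cdk1 and Ttk, which were not called, were placed in other role groups. By unadjusted p under 0.05 all 5 were higher in DSS. DESeq2 called all 5, and limma-voom called 0. Melk, a kinase of proliferating progenitors, had 0.558 to 3.32 CPM in DSS meninges (median 1.27) and 0.168 to 0.677 CPM in Control meninges (median 0.580). DSS replicate 4 stood far above the other DSS mice and DSS replicate 3 lay in the Control range. The log2 fold change was 1.46 ± 0.41 (adjusted p = 0.0574, edgeR), resting on as few as 2 counts in a library. Aurka (Aurora A, which acts at spindle poles) ranged over 0.758 to 2.96 CPM in DSS mice (median 2.16) and 0.671 to 1.46 CPM in Control mice (median 1.14). All DSS mice except replicate 3 were above the highest Control mouse, with a log2 fold change of 0.89 ± 0.29 (adjusted p = 0.0953, edgeR). Pbk (a kinase active in mitosis), Nek2, which acts at centrosomes, and Plk1 (Polo-like kinase 1, needed throughout mitosis) had log2 fold changes of 1.30, 1.02 and 0.89, also not called.

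In the chromosomal passenger complex, which corrects faulty kinetochore attachments, Birc5 and Aurkb rose and Cdca8 did not pass. Birc5 (survivin) had 1.04 to 3.41 CPM in DSS meninges, with a median of 2.51, and 0.600 to 1.26 CPM in Control meninges, with a median of 0.880. Only DSS replicate 3 lay within the Control range. Its log2 fold change of 1.43 ± 0.29 had an adjusted p of 0.0121 in edgeR's test. Aurkb (Aurora B, the kinase of the complex) rose by 0.91 ± 0.21 (adjusted p = 0.0252, edgeR), a call lost when DSS replicate 4, 5 or 6 or Control replicate 5 or 6 was left out. Cdca8 (borealin) had 0.877 to 2.71 CPM in DSS mice (median 1.80) and 1.09 to 1.80 CPM in Control mice (median 1.32). DSS replicates 1, 4 and 5 were above the Control range, replicates 2 and 6 within it and replicate 3 below it, and the log2 fold change was 0.41 ± 0.28 (adjusted p = 0.476, edgeR).

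The spindle checkpoint and anaphase group held both a rise called under every alternative run and the member with the least difference. Ube2c, the ubiquitin-conjugating enzyme of the anaphase-promoting complex, had 1.91 to 4.31 CPM in DSS meninges (median 2.53) and 1.01 to 1.46 CPM in Control meninges (median 1.15). No DSS mouse overlapped the Control range. It rose by 1.22 ± 0.22 on the log2 scale (adjusted p = 0.00457, edgeR). Bub1, a checkpoint kinase, and Cdc20, the activator of the anaphase-promoting complex, rose by 1.39 ± 0.33 and 0.89 ± 0.21. Both calls were lost when DSS replicate 4 or 6 was left out, that of Bub1 also with Control replicate 5 or 6 left out, and that of Cdc20 also with DSS replicate 5 or Control replicate 3 or 4 left out.

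Mad2l1 (MAD2, which holds CDC20 inactive until chromosomes are attached) had 4.67 to 7.60 CPM in DSS meninges (median 6.38) and 5.79 to 7.69 CPM in Control meninges (median 6.43). The groups overlapped almost wholly, and no DSS mouse was above the highest Control mouse. Its log2 fold change was -0.04 ± 0.13 (adjusted p = 0.918, edgeR), with a sign that turned when DSS replicate 3 or Control replicate 4 or 6 was left out. Bub1b (BUBR1, another checkpoint protein) had a log2 fold change of 0.30 ± 0.11, and Ttk (MPS1, the checkpoint's upstream kinase) one of 1.05 ± 0.33, neither called.

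Of 7 kinetochore members, 2 rose, and the group's median log2 fold change of 0.67 was the lowest among the role groups. Cenpa (the histone H3 variant that marks centromeres) had 4.18 to 6.07 CPM in DSS meninges, with a median of 5.12, and 2.43 to 3.72 CPM in Control meninges, with a median of 3.36. All 6 DSS mice were above the Control mice. Cenpa rose by 0.62 ± 0.13 on the log2 scale (adjusted p = 0.0164, edgeR). Cenpf, a large outer kinetochore protein, rose by 0.94 ± 0.24, a call lost when DSS replicate 4, 5 or 6 or any Control mouse but replicate 4 was left out.

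The 4 genes of the NDC80 complex, which binds kinetochores to microtubules, did not pass. Ndc80 had 0.638 to 1.68 CPM in DSS mice (median 1.01) and 0.532 to 0.922 CPM in Control mice (median 0.882). DSS replicates 1 and 3 lay within the Control range and the log2 fold change was 0.40 ± 0.26 (adjusted p = 0.453, edgeR). Its partners Nuf2, Spc24 and Spc25 had log2 fold changes of 0.86, 0.67 and 0.66. Cenpe, a kinetochore motor protein, had one of 0.67 and was called when DSS replicate 2 or 3 was left out.

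Of the 5 spindle and cytokinesis genes, Tpx2 and Hmmr rose. Tpx2, which activates Aurora A and nucleates spindle microtubules, had 2.86 to 8.25 CPM in DSS meninges (median 5.08) and 1.80 to 2.71 CPM in Control meninges (median 2.60). The groups did not overlap, although DSS replicate 2 was close to the highest Control mouse. Tpx2 rose by 1.06 ± 0.23 on the log2 scale (adjusted p = 0.0169, edgeR). Hmmr, a spindle-associated hyaluronan receptor, rose by 1.16 ± 0.31, but the call (adjusted p = 0.0472, edgeR) was lost when any 1 mouse other than DSS replicate 2 or 3 was left out.

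Nusap1, which bundles spindle microtubules, had 1.67 to 4.76 CPM in DSS mice (median 3.47) and 1.44 to 2.68 CPM in Control mice (median 2.27). Only DSS replicate 3 lay in the Control range, and DSS replicate 6 was highest. Nusap1 had a log2 fold change of 0.67 ± 0.24 (adjusted p = 0.135, edgeR). Prc1, the organizer of the midzone between separating chromosomes, and Anln (anillin, of the cleavage furrow) had log2 fold changes of 0.81 and 0.61 and were not called.

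Mki67 and Top2a, the most abundant members by CPM, both rose. Mki67 encodes the Ki-67 protein that coats mitotic chromosomes and is a standard marker of cycling cells. It had 17.9 to 54.1 CPM in DSS meninges, with a median of 31.7, and 9.48 to 15.7 CPM in Control meninges, with a median of 12.98. The groups did not overlap, and DSS replicate 3 was the lowest and replicate 4 the highest DSS mouse. Its log2 fold change of 1.38 ± 0.23 had the smallest p of the set (adjusted p = 0.00333, edgeR). Top2a (topoisomerase II alpha, which untangles replicated DNA) had 10.2 to 31.6 CPM in DSS mice (median 19.3) and 7.64 to 11.7 CPM in Control mice (median 8.64). DSS replicates 2 and 3 lay in the range of Control, whose highest library was replicate 2. Top2a rose by 1.08 ± 0.23 on the log2 scale (adjusted p = 0.0154, edgeR).

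**Figure D2:**
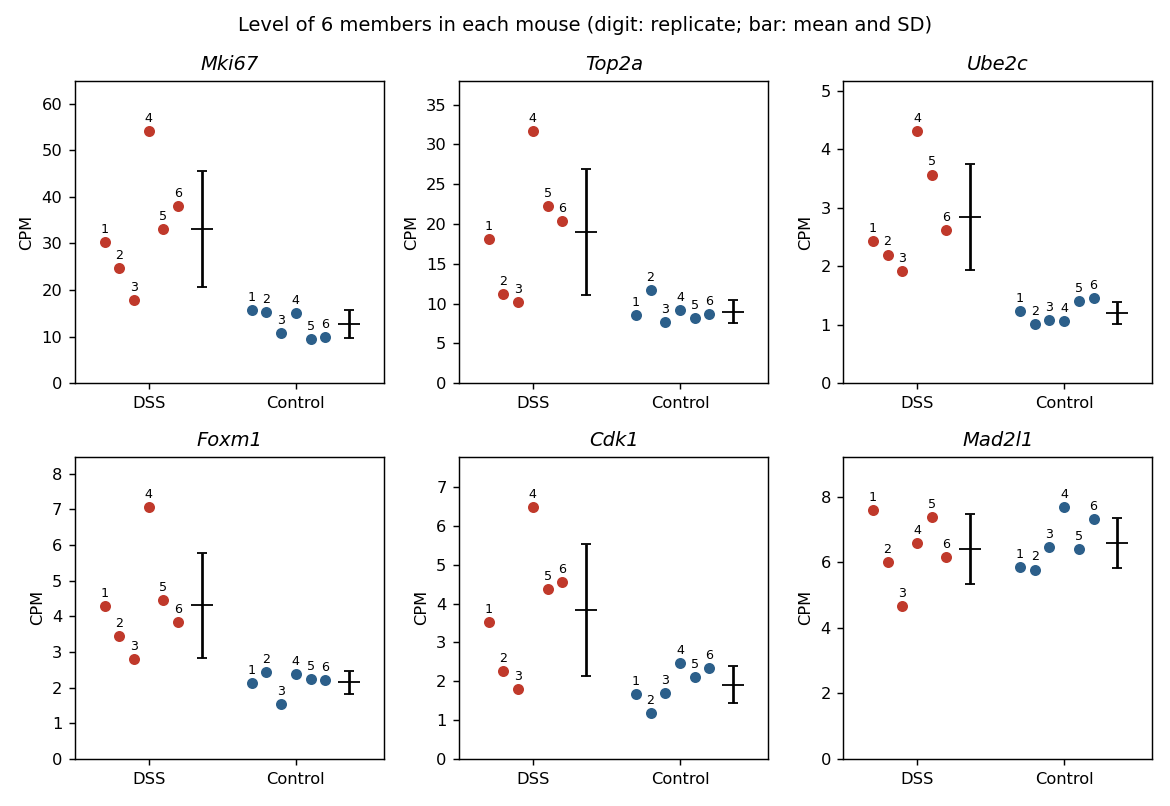
CPM (y axis) of Mki67, Top2a, Ube2c, Foxm1, Cdk1 and Mad2l1 in each of 6 DSS and 6 Control mice, with the replicate number at each point and bars of mean and SD. Mki67, Ube2c and Foxm1 did not overlap between groups, Top2a and Cdk1 overlapped through DSS replicates 2 and 3, and Mad2l1 overlapped almost wholly.

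Enzymes of nucleotide supply rose in 2 of 3 cases, and both calls were lost when single mice were left out. Rrm2, the S phase subunit of ribonucleotide reductase, had 1.95 to 6.36 CPM in DSS meninges (median 4.39) and 2.12 to 2.88 CPM in Control meninges (median 2.20). DSS replicate 3 was below every Control mouse and the other 5 DSS mice were above them all. The log2 fold change was 0.92 ± 0.24 (adjusted p = 0.0412, edgeR), and the call was lost when any 1 mouse other than DSS replicate 2 or 3 was left out. Tk1 (thymidine kinase 1) rose by 0.82 ± 0.21, a call lost when DSS replicate 4, 5 or 6 or any Control mouse but replicate 2 was left out. Tyms (thymidylate synthase) had 3.71 to 7.51 CPM in DSS mice (median 5.22) and 3.48 to 5.42 CPM in Control mice (median 4.18). Only DSS replicates 4 and 5 were above the Control range, and the log2 fold change was 0.35 ± 0.16 (adjusted p = 0.267, edgeR).

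**Figure D3:**
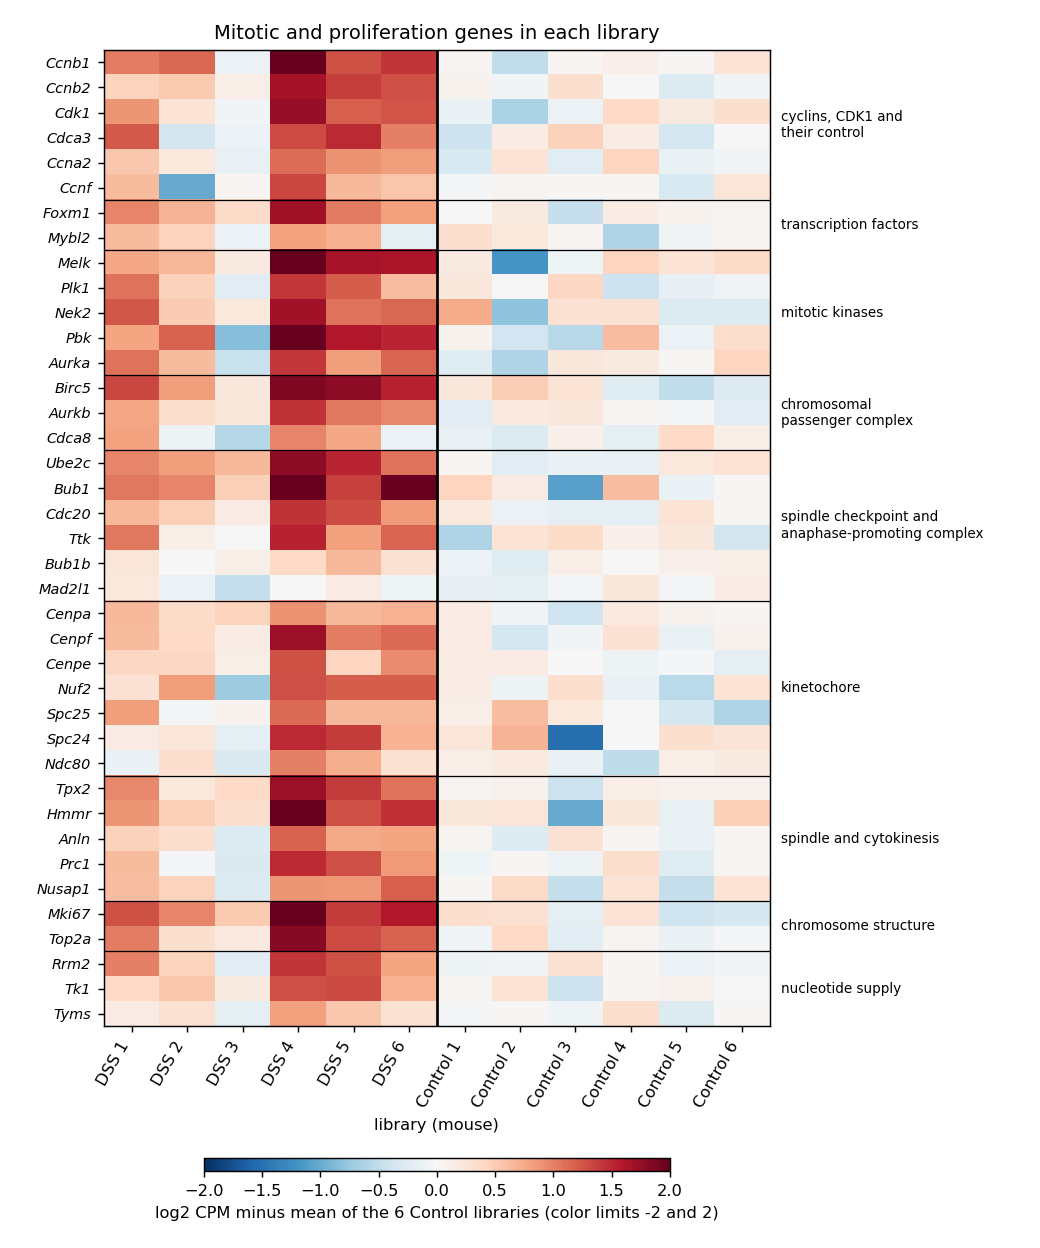
Log2 CPM of each tested member in every library minus the mean of the 6 Control libraries (color, limits -2 and 2), with DSS libraries left of Control libraries and members grouped by role. DSS replicate 4 is the darkest column, and DSS replicate 3 resembles the Control columns for most members.

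In these genes the 6 DSS mice differed from each other more than the Control mice did. The SD of log2 CPM was larger in DSS than in Control for 36 of 39 members, against 51.8% of all tested genes, and at least 1.5 times larger for 29, against 21.2%. The median SD was 0.57 in DSS and 0.26 in Control over the members, and 0.22 in DSS and 0.21 in Control over all tested genes. Pbk had the widest DSS spread, with an SD of 1.03 in DSS and 0.44 in Control. Nek2, Spc24 and Cenpa were the 3 exceptions, and the SD of Cenpa was 0.19 in DSS and 0.22 in Control.

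**Figure D4:**
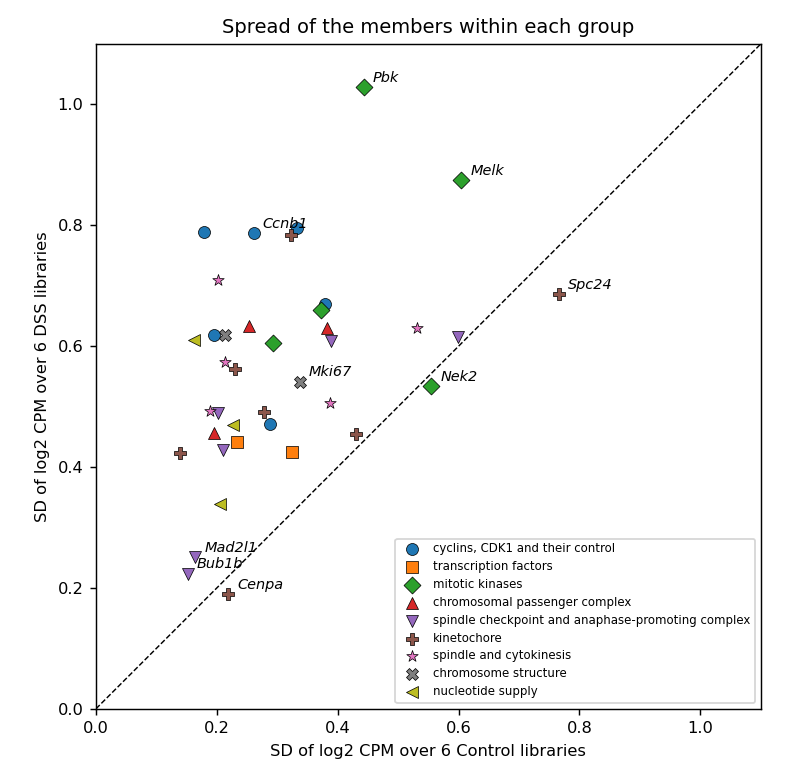
SD of log2 CPM over the 6 DSS libraries (y axis) against that over the 6 Control libraries (x axis) for the 39 tested members, with a dashed line of equal SD and markers by role. All but Nek2, Spc24 and Cenpa lie above the line.

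The same mice were high or low for most members. DSS replicate 4 was the highest DSS mouse for 34 of 39 members, against 16.7% of all tested genes, and DSS replicate 3 the lowest for 32, against 16.3%. DSS replicates 2 and 3 were the lowest pair for 29 members, against 8.41% of all tested genes, and DSS replicates 4, 5 and 6 were the highest for 25, against 6.19%. Summed over the members, the level was 164, 128, 101, 266, 202 and 189 CPM in DSS replicates 1 to 6, and 89.0 to 105 CPM in Control mice. DSS replicate 3 thus lay within the Control range of the sum, and the other 5 DSS mice were above it.

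Counted by gene, DSS replicates 4 and 5 were above the highest Control mouse for 38 members each, replicate 6 for 35, replicate 1 for 34, replicate 2 for 24 and replicate 3 for 5. All 6 DSS mice were above all Control mice for 5 members, Mki67, Ube2c, Foxm1, Cenpa and Tpx2, against 2.23% of all tested genes. At least 4 DSS mice were above the highest Control mouse for 35 members, against 9.19%. DSS replicate 3 stood within the Control range for 27 members.

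Markers of myeloid cells were also higher in DSS mice. Of 12 granulocyte precursor markers, 12 rose, and they summed to 556, 554, 130, 520, 451 and 600 CPM in DSS replicates 1 to 6 and to 30.2 to 85.8 CPM in Control mice. Mpo (myeloperoxidase, made by granulocyte precursors) was at 5.66 to 41.5 CPM in DSS meninges and 1.25 to 4.86 CPM in Control meninges. DSS replicate 3, the lowest for the mitotic genes, also had the lowest sum of these markers. The sum in DSS replicate 2, low for the mitotic genes, was among the higher ones, but the order differed by marker. Ltf and Ngp were at 172 and 187 CPM in DSS replicate 2, against 41.5 to 209 and 37.0 to 168 CPM in the other DSS mice. Camp and Chil3 were at 69.0 and 77.4 CPM there, against 19.7 to 69.3 and 16.0 to 69.8 CPM in the other DSS mice. Mpo (21.2 CPM), Prtn3, Ctsg, Ms4a3 and Fcnb were lower in DSS replicate 2 than in every other DSS mouse except replicate 3. Elane was at 8.59 CPM in DSS replicate 2, also above DSS replicate 5 (8.37 CPM). Cebpe was at 2.72 CPM in DSS replicate 2, also above DSS replicate 4 (2.42 CPM). Gfi1 was lowest of DSS in replicate 2, at 1.03 CPM. Of 8 mature neutrophil markers, 8 rose, and S100a8, a calprotectin subunit, had 32.1 to 279 CPM in DSS and 9.63 to 39.7 CPM in Control. Monocyte markers rose in 4 of 6 cases and summed to 274, 240, 224, 399, 305 and 329 CPM in DSS replicates 1 to 6 and to 161 to 190 CPM in Control mice. The high sum in DSS replicate 4 came with 220.0 CPM of F13a1 (a coagulation factor subunit), which was not called and had 87.3 to 150.04 CPM in the other DSS mice and 84.8 to 105 CPM in Control mice. The called markers Ly6c2 and Ccr2, a surface antigen and a chemokine receptor of monocytes, were highest in DSS replicate 6, at 43.2 and 83.2 CPM, and lowest of DSS in replicate 3, at 20.4 and 56.8 CPM. The part of these cells in the members' rise was not tested.

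For 9 other marker lists with 61 tested genes, edgeR called 0 with all mice. Without DSS replicate 2 it called 3 skeletal muscle markers fallen, 2 border-associated macrophage markers risen and 1 T and NK cell marker risen, and without Control replicate 6 it called 1 border-associated macrophage marker risen and 1 erythroid precursor marker fallen. An unadjusted p under 0.05 was met by 7 higher and 3 lower genes, DESeq2 called 3 risen and 1 fallen, and limma-voom 2 risen and 2 fallen. The 10 erythroid precursor markers summed to 349 to 1407 CPM in DSS, highest in replicate 4, and to 792 to 1604 CPM in Control. Hbb-bs, a beta globin gene, had 174 to 774 CPM in DSS and 408 to 896 CPM in Control. The 7 border-associated macrophage markers summed to 369 to 779 CPM in DSS, highest in replicate 4, and to 425 to 490 CPM in Control. The 8 fibroblast markers summed to 10633 to 20892 CPM in DSS, highest in replicates 4 and 5, and to 11583 to 18296 CPM in Control. Col1a1 and Col1a2 made up most of that sum, at 9121 and 8065 CPM in DSS replicate 4. The 6 choroid plexus markers summed to 7578, 9583, 911, 304, 4499 and 6295 CPM in DSS replicates 1 to 6. In Control mice they summed to 253 to 9599 CPM, and their relation to the members' spread was not tested. The other lists were endothelial, T and NK cell, B cell precursor, colon epithelium and skeletal muscle markers. The 7 bone markers summed to 467 to 1797 CPM in DSS and 932 to 2146 CPM in Control. Of these, 3 fell (Acp5, Ctsk and Ibsp), and 1 fell without DSS replicate 1 or 6 or Control replicate 2, 3 or 5.

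**Figure D5:**
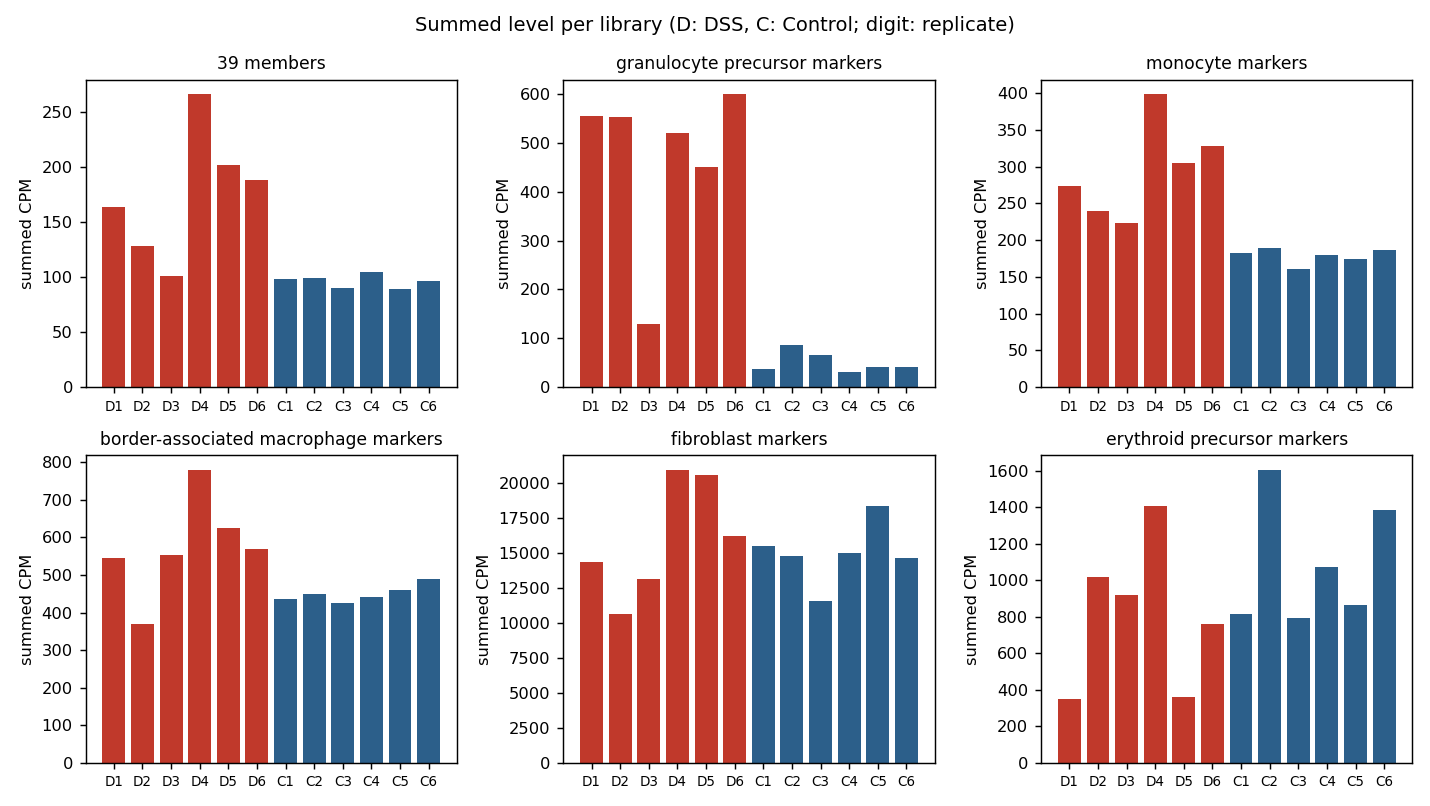
Summed CPM (y axis) per library of the 39 tested members and of 5 marker lists, with 6 DSS libraries (D) left of 6 Control libraries (C). DSS replicate 4 is highest of DSS for the members and for border-associated macrophage, monocyte, fibroblast and erythroid precursor markers. Its monocyte sum holds 220.0 CPM of F13a1. DSS replicate 6 is highest for granulocyte precursor markers. DSS replicate 3 is lowest of DSS for the members, granulocyte precursor and monocyte markers.

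Related genes outside the set rose in part. Of 43 other mitotic genes tested, 8 rose (18.6%, against 3.68% of all tested genes) and 0 fell in edgeR, 27 were higher (62.8%, against 9.77%) and 0 lower at an unadjusted p under 0.05, and the median log2 fold change was 0.62. DESeq2 called 12 risen and limma-voom 11, with 0 fallen. Cdca5 (sororin, which protects sister chromatid cohesion) had 0.808 to 1.61 CPM in DSS and 0.180 to 0.585 CPM in Control, and a log2 fold change of 1.22 ± 0.27. Dlgap5 and Aspm, both spindle proteins, rose by 1.08 ± 0.24 and 0.95 ± 0.21. The count was 2 to 12 with 1 mouse left out. It was 2 (4.65%, against 2.37% of all tested genes) without DSS replicate 6. It was 3 without DSS replicate 4 or Control replicate 5, and 5 without DSS replicate 5 or Control replicate 3 or 4.

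Of 41 genes of DNA replication and S phase, 3 rose (7.32%, against 3.68% of all tested genes) and 0 fell in edgeR, 12 were higher (29.3%, against 9.77%) and 0 lower at an unadjusted p under 0.05, and the median log2 fold change was 0.20. DESeq2 called 6 risen and limma-voom 4, with 0 fallen. The activator E2f2 had 3.92 to 6.79 CPM in DSS and 2.43 to 3.69 CPM in Control, without overlap, and rose by 0.87 ± 0.17 (adjusted p = 0.0101, edgeR). Rad51ap1, which aids homologous recombination, rose by 1.14 ± 0.24, and the repressor E2f8 by 1.05 ± 0.28, a call lost when DSS replicate 1, 4, 5 or 6 or any Control mouse but replicate 2 was left out. The count was 2 (4.88%) to 6 with 1 mouse left out, with 5 called without DSS replicate 2 and 6 without DSS replicate 3.

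In lists of other cell cycle genes, median log2 fold changes were 0.11 for 9 G1 cyclins and kinases, 0.03 for 16 inhibitors and pocket proteins, 0.01 for 9 MuvB and DREAM genes and -0.02 for 14 subunits and partners of the anaphase-promoting complex. For the G1 list edgeR called 0, with 3 genes higher (33.3%, against 9.77% of all tested genes) at an unadjusted p under 0.05. In both DESeq2 and limma-voom 2 of the list rose, while these tools called 5.57% and 4.75% of all tested genes risen. For the anaphase-promoting complex edgeR called 0, with 2 higher (14.3%, against 9.77%) and 1 lower at an unadjusted p under 0.05. In both DESeq2 and limma-voom 1 of the list fell. Among the inhibitors and pocket proteins, 1 gene was higher (6.25%, against 9.77%) and 2 were lower at an unadjusted p under 0.05. The lower genes, Cdkn1b and Ccng2, had log2 fold changes of -0.23 ± 0.08 and -0.25 ± 0.10 and were not called by edgeR. The higher gene, Cdkn1a (p21, an inhibitor of cyclin-dependent kinases), rose in edgeR by 0.37 ± 0.09, with 10.7 to 14.1 CPM in DSS and 8.47 to 10.2 CPM in Control. That call was lost when DSS replicate 4 or 5 or Control replicate 3 was left out. Among the MuvB and DREAM genes, Tfdp1, the partner of E2F factors, rose by 0.35 ± 0.09, a call lost when DSS replicate 1, 4, 5 or 6 or Control replicate 1, 2, 3 or 5 was left out.

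Exons of 12 members overlap another gene, and whether the authors counted by strand is not given in the sources used here, so counts of such pairs may be shared. None of the overlapping genes tested was called: Elovl1, which overlaps Cdc20, had a log2 fold change of 0.23 ± 0.09 (adjusted p = 0.170, edgeR), and Afmid, which overlaps Tk1, one of 0.15 ± 0.18 (adjusted p = 0.741, edgeR). Tnnc2, a muscle gene that overlaps Ube2c, had 4.26 CPM in DSS replicate 2, where Ube2c was lower than in all other DSS mice except replicate 3. Named pseudogenes exist for Ccnb1, Ccnb2 and Tyms, whose counts are uncertain to that extent.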

How the data were processed

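The authors made stranded total RNA libraries from meninges, per the labels' protocols, and deposited whole-number counts per gene symbol, not normalized. The submitters' processing notes name featureCounts, HISAT2, Trim Galore, FastQC and CASAVA and the mm10 build. Versions, annotation, strand setting and the handling of multimapping reads were not given in the sources used here. Of the columns, 0 belonged to no sample. A second, normalized table was not used here.

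Counts were filtered (filterByExpr, minimum count 10, minimum total 15), scaled by TMM and tested in all 12 libraries with edgeR 4.0.16 (quasi-likelihood F-test, two-sided, treatment only, R 4.3.3), at a Benjamini-Hochberg adjusted p under 0.05 over all tested genes. The filter's CPM cutoff was 0.405 in at least 6 libraries. CPM values use TMM library sizes, log2 CPM a prior count of 2, and levels per kilobase the exon union of GENCODE release M21. Alternatives used DESeq2 1.42.0 and limma 3.58.1. Total counts of 9312788 to 41869997 per library limit precision, since members had as few as 2 counts in a library. Within groups, every pair of libraries differed beyond sampling noise (lowest chi-square per degree of freedom 19.3). The series design states 12 mice, so p-values measure variation between animals. The edgeR script was tested on simulated data.

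The members, role groups, related lists, markers and motifs were chosen with earlier results of these data known. Ranges and medians are given for Mki67, Top2a, Ube2c, Cdk1, Foxm1 and, in each role group, the members with the smallest and the largest p. From each related list, up to 3 called genes with the smallest p are named. The first marker is given for the granulocyte precursor, mature neutrophil, monocyte, erythroid precursor and fibroblast lists, and not for the other marker lists. Other genes named were chosen after their values were seen.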

Additional observations from a re-analysis of the deposited data

Results flagged for a closer look

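In 6 of 78 groups of 6 mice examined (39 members in DSS and in Control), 1 mouse stood apart from the others by Dixon's criterion, which chance meets in about 1 in 20 groups, or 3.9 of 78. All 6 cases were in the Control group. Control replicate 2 was lowest for Ccnb1, at a log2 CPM of -0.12 with the nearest Control mouse at 0.40, and for Melk, at -2.0 with the nearest at -0.91 and 2 counts in that library. Control replicate 3, the library with the fewest total counts, was lowest for Foxm1, at 0.69 with the nearest at 1.15, for Spc24, at -1.51 with the nearest at 0.00 and 3 counts, and for Tpx2, at 0.91 with the nearest at 1.40. It was highest for Rrm2, at 1.56 with the nearest at 1.29.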

How the results depend on the processing

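With 1 mouse left out, 7 to 30 members rose and 538 to 1379 genes were called in all, against 16 and 919. DESeq2's Wald test called 27 members and 1551 genes, and an adjusted p under 0.1 gave 26 and 1641. The other alternatives gave 13 to 17 members. No alternative gave a fallen member. Cenpa, Foxm1, Mki67, Top2a, Tpx2 and Ube2c were called under every alternative, and the other 10 risen members lost the call under at least 1. Another 14 members gained it under at least 1, and 9 did under none. The sign turned for Mad2l1 alone, whose log2 fold change was -0.0960 to 0.0359 with 1 mouse left out, the positive values being 0.0359 (DSS replicate 3 left out), 0.0194 (Control replicate 4) and 0.00266 (Control replicate 6). The cause of these changes was not tested. Replicate numbers gave no sign of pairing over all tested genes. Correlations of same-numbered libraries were -0.19 to 0.15, and 1 of 6 numbers had its own number as best partner. Such correlations cannot exclude that same-numbered mice were handled together. With the replicate number as a block, 14 members rose, 11 of them shared with the 16, and 708 genes were called. Members near 1 CPM rest on few reads, although Birc5, Bub1 and Ube2c were called at that level, and the smallest change detectable at this depth was not tested.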

Other observations

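Per kilobase of exon, the order of the members in Control meninges differed from their order by fold change. Bub1b was first, at 1.65 to 2.14 CPM per kilobase in Control mice, above the ranges of Cdc20 (1.14 to 1.61) and Mki67 (0.942 to 1.56), which overlapped each other, and Ttk was last, at 0.0482 to 0.110. In DSS mice the highest mean was that of Mki67, at 3.28 CPM per kilobase over a range of 1.78 to 5.37, ahead of Cdc20 at 2.47 over 1.47 to 3.65 and Bub1b at 2.41 over 1.97 to 3.07, with all 3 ranges overlapping.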
